A study of Bos taurus with 96 samples.

Results

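PPARGC1A (ENSBTAG00000017024), ESRRG (ENSBTAG00000010392) and LPIN1 (ENSBTAG00000007689) were followed through pregnancy and lactation in muscle and liver of dairy cows. They were chosen by identifier, as 3 of the 24616 genes counted, with earlier results of these data known. PPARGC1A encodes PGC-1α, a coactivator that docks on nuclear receptors and turns on genes of mitochondrial biogenesis and oxidative metabolism, and in fasted liver genes of glucose production. ESRRG encodes the orphan nuclear receptor ERRγ, a partner of PGC-1α that is abundant in heart and in oxidative muscle. LPIN1 encodes lipin 1, a phosphatidate phosphatase that makes diacylglycerol for triglyceride synthesis and that, in the nucleus, can assist PGC-1α at genes of fatty acid oxidation. Fasting and glucocorticoids are known to raise LPIN1 and PPARGC1A in liver.

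The animals were 16 Holstein cows of 1 herd. In the group called Fert+ 8 cows had high breeding merit for fertility, in the group called Fert- 8 cows had low merit, and the groups had similar merit for milk production. The design asks how the tissues differ between these genotypes at each stage, and how they change between stages. Each cow was biopsied in the liver and in the semitendinosus muscle in late pregnancy (LP, day -18 from calving), early lactation (EL, day 1) and mid lactation (ML), which gave 96 polyA RNA-seq libraries. No agent was given, and the genotypes are sets of cows chosen on estimated merit, not carriers of an allele. Both parity classes, first and second, were present in each genotype, and ages were not used here. Levels are given in CPM (count per one-millionth of the library total), with totals scaled by trimmed mean of M-values (TMM).

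Library totals ran from 14966847 to 26358063 counted fragments in liver and from 15279337 to 22018740 in muscle. The labelled tissues matched their markers. The summed level of 5 skeletal muscle markers had a median of 113596 CPM in muscle at LP and 15.8 CPM in liver, and that of 6 hepatocyte markers 133753 CPM in liver and 2.78 CPM in muscle. For a set of 19 genes, 13 libraries, 8 of liver and 5 of muscle, counted at least 11 at 50 or more fragments. Every other library counted at most 3 of them in that way. The set and the 13 libraries were both defined from these counts. The 5 muscle libraries, which include the EL libraries of cows 164 and 419, were all from Fert- cows, 1 or 2 of the 8 at each time-point. The fits and the correlations between levels of the members were also run without these 13 libraries, and the calls that changed are given both ways. Whole-biopsy levels do not separate fewer cells of a type from less RNA per cell.

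In muscle, LPIN1 followed calving in every cow. At LP it lay between 72.2 and 296 CPM with a median of 151 CPM over the 16 cows. At EL it lay between 165 and 1077 CPM with a median of 425 CPM, and 11 cows stood above the highest LP value. At ML it was back between 42.6 and 216 CPM with a median of 76.6 CPM, and 15 of 16 cows stood below the lowest EL value. Within cows, LPIN1 was higher at EL than at LP in 16 of 16, by 1.30-fold in cow 1000 to 10.9-fold in cow 756, with a median of 3.17-fold. It was lower at ML than at EL in 16 of 16, to a median of 0.187 of the EL level.

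The changes of LPIN1 passed the test in all 3 comparisons of time-points in muscle. The edgeR tests between time-points treated the libraries of a cow as independent unless the cow is named as a block. The log2 fold change from LP to EL was 1.76 ± 0.24 (SE; edgeR quasi-likelihood test, adjusted p = 4.42e-08). From EL to ML it was -2.59 ± 0.24 (edgeR, adjusted p = 4.34e-12). Among all 12675 genes tested in muscle, 29.1% were up-regulated and 24.8% down-regulated at EL against LP, and 28.5% up-regulated and 31% down-regulated at ML against EL, so a call in these comparisons was common. ML levels were below LP levels in 13 of 16 cows, with a log2 fold change of -0.83 ± 0.23 (edgeR, adjusted p = 0.0211). In that comparison only 2.46% of genes were up-regulated and 3.62% down-regulated. This call was lost without cow 3847, whose LP level was the highest of the group (-0.72, adjusted p = 0.0626), and without the 13 libraries (-0.75, adjusted p = 0.0535), both by edgeR. Fitted on each genotype alone, the log2 fold change from LP to EL was 2.11 in Fert+ and 1.39 in Fert- cows. The difference between the genotypes in their time course was not called (edgeR interaction, adjusted p = 0.881).

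PPARGC1A in muscle had similar medians at LP, EL and ML and its widest spread at EL, which was described and not tested. The level lay between 13.1 and 58.9 CPM at LP (median 21.3 CPM), between 4.94 and 328 CPM at EL (median 21.7 CPM) and between 19.3 and 34.2 CPM at ML (median 23.3 CPM). The SD of log2(CPM + 1) over the 16 cows went from 0.52 at LP to 1.33 at EL and then to 0.22 at ML. The range at EL was thus the widest at both ends, with 2 cows above the highest LP value and 5 below the lowest. Cow 756 was at the top with 328 CPM, cow 164 came next with 62.2 CPM, and cow 419 was at the bottom with 4.94 CPM. Within cows PPARGC1A was higher at EL than at LP in 6 of 16, from a rise of 16.8-fold in cow 756 to a drop to 0.165 of the LP level in cow 1179.

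No change of PPARGC1A between time-points in muscle passed the test. The log2 fold change was 0.56 ± 0.34 from LP to EL (edgeR, adjusted p = 0.159), -0.57 ± 0.34 from EL to ML (adjusted p = 0.144) and -0.01 ± 0.34 from LP to ML (adjusted p = 0.992). The first value turned to -0.18 without cow 756, and with the cow as a block it was -0.02 (edgeR, adjusted p = 0.964). In the 8 Fert+ cows alone, which include cow 756, a rise of 1.49 (edgeR, adjusted p = 0.0393) and a fall of -1.39 (adjusted p = 0.0461) were called, where 18.7% of genes were up-regulated at EL and 23.1% down-regulated at ML. The medians of those cows were 20.4 CPM at LP and 24.7 CPM at EL. The 8 Fert- cows alone gave -0.39 (adjusted p = 0.435) and 0.26 (adjusted p = 0.607) in the same edgeR tests.

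ESRRG was counted at low levels in muscle. It lay between 0.453 and 2.18 CPM at LP (median 1.07 CPM), between 0.450 and 14.05 CPM at EL (median 1.32 CPM) and between 0.613 and 2.63 CPM at ML (median 1.15 CPM), with 7 to 237 counted fragments per library. Most cows stayed in the same range throughout, and 5 cows at EL exceeded the highest LP value. Those 5 were cow 756 with 14.05 CPM, cow 430 with 5.78 CPM, cow 782 with 5.42 CPM, cow 164 with 4.39 CPM and cow 3847 with 2.36 CPM. ESRRG was higher at EL than at LP in 8 of 16 cows and lower in the other 8.

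The change of ESRRG was called at both steps, with a log2 fold change of 0.89 ± 0.33 from LP to EL (edgeR, adjusted p = 0.0221) and -0.84 ± 0.33 from EL to ML (adjusted p = 0.0273). With the cow as a block, neither was called, at 0.55 (adjusted p = 0.148) and -0.54 (adjusted p = 0.150), although that edgeR fit called 29.9% of genes up at EL and 31.5% down at ML. Without cow 756 the log2 fold changes were 0.50 (adjusted p = 0.161) and -0.46 (adjusted p = 0.193), and the calls were also lost without cow 164 (adjusted p = 0.0718 and 0.0865). The EL to ML call was lost without cow 782 (edgeR, adjusted p = 0.0557). Without the 13 libraries the edgeR values were 0.59 (adjusted p = 0.156) and -0.60 (adjusted p = 0.150).

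**Figure D1:**
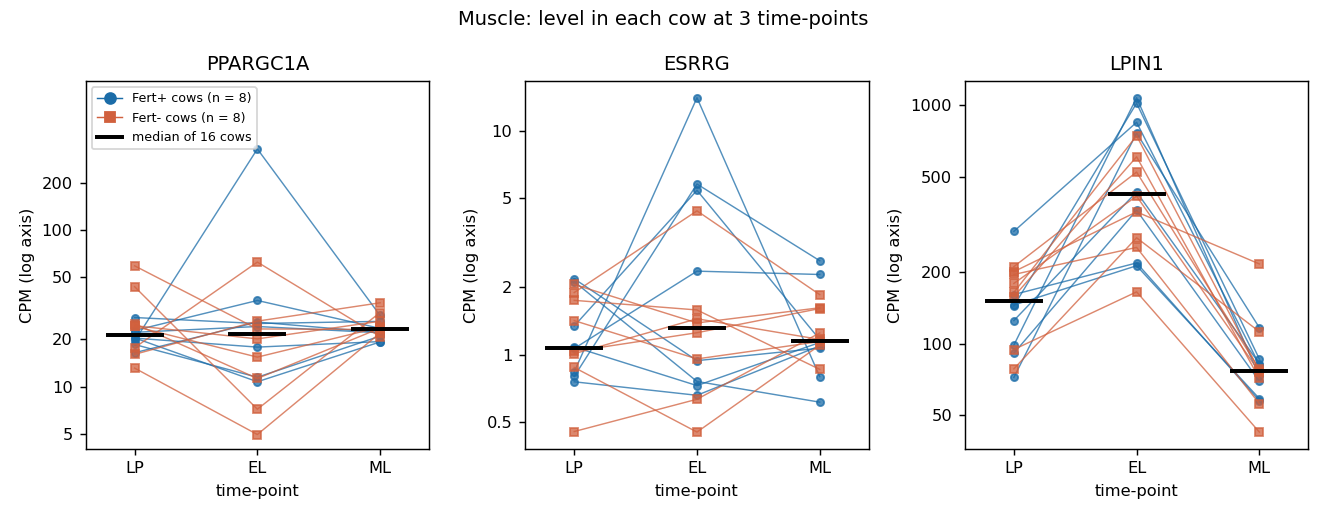
Levels of the 3 genes in muscle (CPM, log axis) at LP, EL and ML, with 1 line per cow and the genotypes in separate colours. LPIN1 rose in 16 of 16 cows at EL and fell in 16 of 16 at ML, while the highest line of PPARGC1A at EL (328 CPM) and of ESRRG (14.05 CPM) is cow 756.

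The muscle biopsies at EL differed from the others in their muscle markers too. The summed level of the 5 skeletal muscle markers (ACTA1, CKM, DES, TTN and MYBPC1) had medians of 113596 CPM at LP, 47624 CPM at EL and 120944 CPM at ML, and at EL it ranged from 25848 to 114869 CPM. The markers did not move alike: the median of ACTA1 went from 42462 CPM at LP to 7520 CPM at EL, and that of TTN from 29701 to 22202 CPM, while DES was at 7663 and 7937 CPM. The 2 fibroblast markers found of 3 listed (COL1A1 and DCN) fell from a median of 243 CPM to 140 CPM and returned to 198 CPM. Hepatocyte markers, 6 of 6, had summed medians of 2.78, 2.75 and 10.7 CPM at LP, EL and ML, with 151 CPM as the highest value of a muscle library, at ML. Adipocyte markers (3 found of 6) had summed medians of 6.21, 6.05 and 15.3 CPM, the endothelial marker VWF 65.2, 91.2 and 76.7 CPM, myeloid markers (2 of 5) 0.288, 0.584 and 0.164 CPM and erythroid markers (2 of 4) 0.359, 0.135 and 0.22 CPM. Over the 16 cows at EL, ESRRG correlated with the muscle marker sum at r = 0.55 (rho = 0.42, permutation p = 0.0274 for r, adjusted p = 0.493 over 18 relations), and r was 0.35 without cows 430 and 782. LPIN1 (r = 0.20) and PPARGC1A (r = 0.27) did not pass in the same permutation tests. The part of these markers in the time courses was not tested.

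In liver, PPARGC1A and LPIN1 passed the filter on low counts and ESRRG did not. ESRRG ranged from 0 to 7 counted fragments, at 0 in 16 of 48 libraries, with 1 to 3 in 23 and over 3 in 9. A count of 0 allows up to 3 fragments, which was 0.108 to 0.221 CPM depending on the library, for counting error only. The highest liver value was 0.325 CPM, below the lowest muscle value of 0.450 CPM. No time course of ESRRG could be read in liver at this depth.

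PPARGC1A in liver lay between 14.6 and 74.2 CPM at LP (median 21.6 CPM), between 12.1 and 67.8 CPM at EL (median 26.5 CPM) and between 15.6 and 38.1 CPM at ML (median 21.6 CPM). It was higher at EL than at LP in 12 of 16 cows and lower at ML than at EL in 13 of 16. The top values belonged to different cows, 426 at LP, 3847 at EL and 996 at ML. The log2 fold change was 0.30 ± 0.19 from LP to EL (edgeR, adjusted p = 0.382), -0.41 ± 0.19 from EL to ML (adjusted p = 0.0782) and -0.11 ± 0.19 from LP to ML (adjusted p = 0.755). None was called, where edgeR called 2.27% of 13815 genes up and 0.977% down at EL against LP, 18.1% up and 20.2% down at ML against EL, and 7.41% up and 5.05% down at ML against LP.

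LPIN1 in liver lay between 15.4 and 153 CPM at LP (median 28.6 CPM), between 4.55 and 111 CPM at EL (median 45.3 CPM) and between 18.2 and 78.9 CPM at ML (median 32.1 CPM). The top at LP was shared by cow 1000 with 153 CPM and cow 426 with 145 CPM, and the next cow was at 50.8 CPM. At EL the cows spread widest, with an SD of 1.29 in log2(CPM + 1) against 0.61 at ML. EL was above LP in 8 of 16 cows and below it in the other 8, and the same held for ML against EL. The log2 fold changes of 0.07, -0.18 and -0.11 did not pass (edgeR, adjusted p = 0.938, 0.707 and 0.868).

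**Figure D2:**
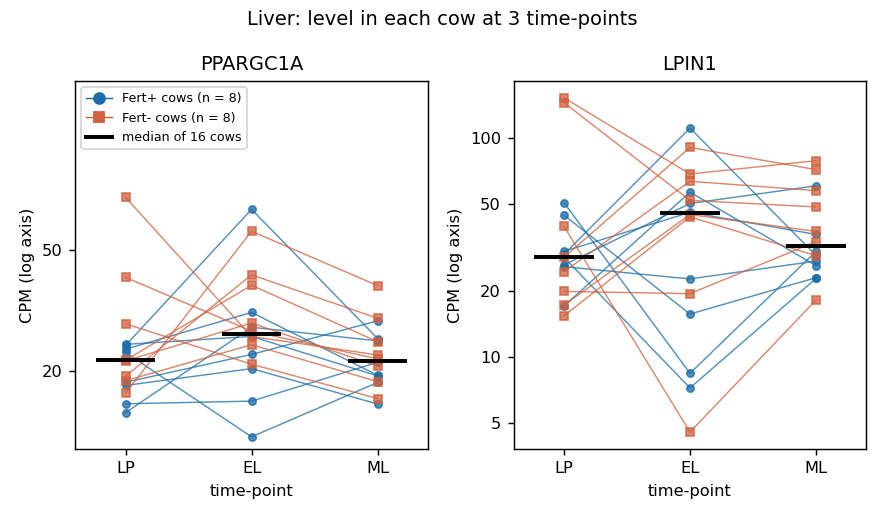
Levels of PPARGC1A and LPIN1 in liver (CPM, log axis) at LP, EL and ML, with 1 line per cow and the genotypes in separate colours. The lines of LPIN1 spread from 4.55 to 111 CPM at EL and cross between time-points, and those of PPARGC1A lie between 12.1 and 74.2 CPM throughout.

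The tissues were compared within cows on log2(CPM + 1), by exact sign-flip permutation tests over 16 cows with adjustment over 9 comparisons. LPIN1 was higher in muscle than in liver by 2.04 ± 1.001 (SD) at LP and 3.73 ± 1.67 at EL, in 16 of 16 cows each (exact, adjusted p = 5.49e-05), and by 1.11 ± 0.75 at ML in 14 of 16 (exact, adjusted p = 0.000275). ESRRG was higher in muscle in 16 of 16 cows at each time-point, by 1.06, 1.43 and 1.04 (exact, adjusted p = 5.49e-05 each, from the smallest p these tests can give, 3.05e-05). Those differences understate the ratio of ESRRG, since the pseudocount of 1 exceeds its liver level. PPARGC1A differed by -0.01 ± 0.76, -0.35 ± 1.63 and 0.09 ± 0.42, and none of these passed (exact, adjusted p = 0.94, 0.475 and 0.475).

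The change of LPIN1 also differed between the tissues, a comparison chosen after the values were seen. Its rise from LP to EL averaged 1.65 in muscle and -0.04 in liver, a difference of 1.69 ± 1.96 (SD) with the larger change in muscle in 11 of 16 cows (exact, adjusted p = 0.0119). From EL to ML the means were -2.47 and 0.15, a difference of -2.62 ± 1.40 in 16 of 16 cows (exact, adjusted p = 0.000275). From LP to ML they were -0.82 and 0.11, a difference of -0.93 ± 1.08 in 13 of 16 cows (exact, adjusted p = 0.0119). The differences of PPARGC1A from LP to EL and from EL to ML were -0.33 and 0.44 (exact, adjusted p = 0.604 and 0.407), and ESRRG is not compared, since its liver counts are too low.

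Fert+ and Fert- cows were compared at each time-point. The study lists PPARGC1A and ESRRG as DE in muscle at EL and LPIN1 as DE in liver at LP on these libraries, so these contrasts are not independent evidence. In muscle at EL, PPARGC1A ran from 10.7 to 328 CPM in Fert+ cows (median 24.7 CPM) and from 4.94 to 62.2 CPM in Fert- cows (median 17.8 CPM). ESRRG ran from 0.657 to 14.05 CPM (median 1.65 CPM) against 0.450 to 4.39 CPM (median 1.32 CPM), and LPIN1 from 213 to 1077 CPM (median 599 CPM) against 165 to 746 CPM (median 387 CPM). The genotypes overlapped for all 3 genes.

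The log2 fold change of Fert+ against Fert- in muscle at EL was 1.47 ± 0.71 for PPARGC1A, 1.32 ± 0.63 for ESRRG and 0.55 ± 0.37 for LPIN1 (SE; edgeR, adjusted p = 0.43, 0.43 and 0.583). Without cow 756 these were 0.01, 0.64 and 0.41, so the value of PPARGC1A rested on that cow. Without cow 164, the highest Fert- cow for PPARGC1A and ESRRG, they were 1.95 and 1.80 for these genes, with adjusted p-values of at least 0.272 in every edgeR fit that left out 1 cow. At LP the 3 genes were at -0.41, -0.06 and -0.18, and at ML at -0.17, 0.02 and -0.22, and none was called by edgeR (adjusted p between 0.738 and 0.993). The interaction of genotype with time-point in muscle had an adjusted p of 0.571 for PPARGC1A and 0.776 for ESRRG (edgeR).

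In liver at LP, LPIN1 ran from 17.1 to 50.8 CPM in Fert+ cows (median 29.0 CPM) and from 15.4 to 153 CPM in Fert- cows (median 26.6 CPM). The medians were close and the Fert- mean was raised by cows 1000 and 426. The log2 fold change was -0.80 ± 0.50 (edgeR, adjusted p = 0.846) and -0.39 without cow 1000. PPARGC1A in the same libraries was at -0.58 ± 0.28 (edgeR, adjusted p = 0.773) and at -0.23 without cow 426. At EL the values were -0.24 for PPARGC1A and -0.28 for LPIN1, and at ML -0.15 and -0.55, with adjusted p-values by edgeR between 0.414 and 0.838. The interaction with time-point in liver had adjusted p-values of 0.93 for PPARGC1A and 0.973 for LPIN1 (edgeR).

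Counts of all genes called between genotypes depended on the fit. Fitted at each time-point, the quasi-likelihood test in muscle called 0% of genes at LP, 0.00831% at EL (1 of 12035, LMOD1, encoding leiomodin 1, at 42.0 against 17.1 CPM, not called without the 13 libraries) and 0% at ML, and in liver 0% at LP, EL and ML. At an unadjusted p under 0.05 the counts were 800, 1426 and 917 genes in muscle and 842, 1530 and 1640 in liver, and DESeq2 called 27, 119 and 10 genes in muscle and 0, 6 and 77 in liver. The quasi-likelihood test on the 48 libraries of a tissue in 1 fit called 566 genes in muscle and 362 in liver at EL and 0 at LP and ML. The interaction was called in 0% of genes in either tissue by edgeR (857 genes in muscle and 914 in liver at an unadjusted p under 0.05).

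The study names edgeR's common dispersion method. Run here as edgeR's exact test, with a gene filter that may differ from that of the study, it gave other calls. It called 3.64% of genes in muscle at EL and 2.38% in liver at LP. PPARGC1A (edgeR exact test, adjusted p = 2.19e-08) and ESRRG (adjusted p = 1.26e-05) were among those of muscle, and LPIN1 (adjusted p = 0.00288) among those of liver. When each cow was left out in turn, PPARGC1A and ESRRG were called in 15 of 16 fits and LPIN1 in 14 of 16. The exception for PPARGC1A and ESRRG was cow 756 (edgeR exact test, adjusted p = 1.0 and 0.236 without it), and LPIN1 reached an adjusted p of 0.82 without cow 1000.

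**Figure D3:**
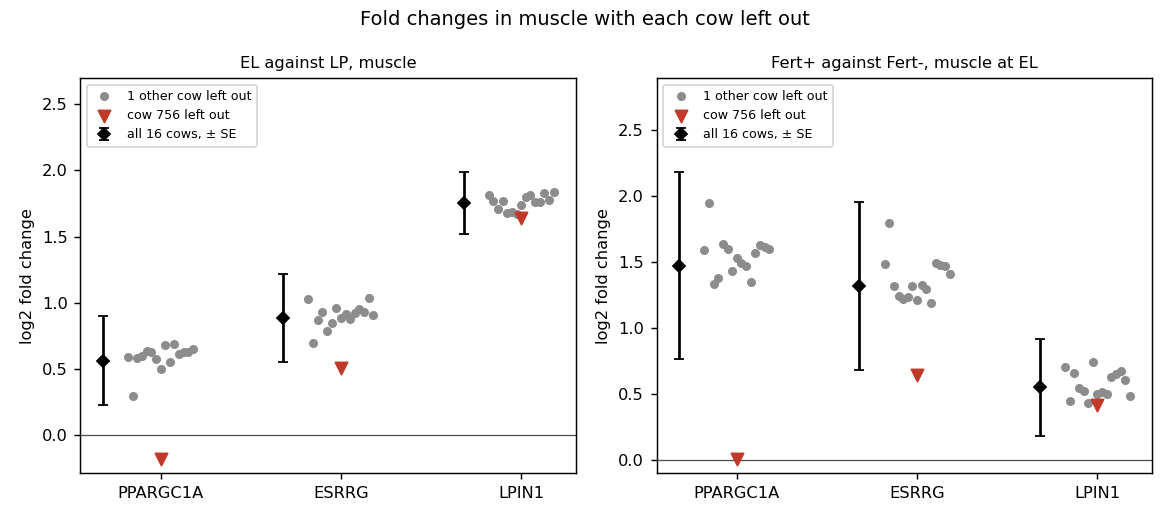
Log2 fold changes in muscle of the 3 genes, EL against LP on the left and Fert+ against Fert- at EL on the right. Black diamonds are the fits on 16 cows with their SE, grey points leave out 1 cow each and red triangles leave out cow 756. The triangle of PPARGC1A drops from 0.56 to -0.18 on the left and from 1.47 to 0.01 on the right, while LPIN1 stays at 1.64 or more on the left.

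Cow 756 at EL was high for many genes besides these 3. In its muscle library PPARGC1A had the 7th largest excess of 12675 genes over the median of the other 15 cows as a difference of log2(CPM + 1), at 328 against 20.1 CPM or 16.3-fold. ESRRG had the 22nd, at 14.05 against 1.25 CPM or 11.2-fold, and LPIN1 the 216th, at 1077 against 416 CPM or 2.59-fold. The 6 genes above PPARGC1A were OTUD1, RCAN1, TIPARP, NR4A3, FOS and BTG2, which were named after their values were seen. FOS and NR4A3 are immediate early genes, RCAN1 encodes an inhibitor of calcineurin, and TIPARP is a target of the aryl hydrocarbon receptor. RCAN1 was at 1759 CPM against a median of 66.2 CPM, and FOS at 159 against 7.78 CPM. The highest of the other 15 cows reached 749 CPM of RCAN1 and 98.1 CPM of FOS. Libraries of other cows were not ranked in this way. The library had 17074861 counted fragments, within the range of the others, and the third highest muscle marker sum at EL (81890 CPM). At LP and ML the same cow had 19.5 and 28.4 CPM of PPARGC1A and 0.838 and 0.797 CPM of ESRRG, inside the range of the other cows.

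Whether the 3 genes vary together between cows was asked within each tissue and time-point, on log2(CPM + 1), by permutation tests adjusted over 18 relations. None passed with all 16 cows in these tests, while 4 passed by r or rho without the 13 libraries, as given beside each below. Passes over 16 cows on unlogged CPM or with genotype means removed are given there too. The strongest over 16 cows was PPARGC1A with LPIN1 in liver at LP, with r = 0.72 (permutation p = 0.0062, adjusted p = 0.112) and rho = 0.32 (adjusted p = 0.814). It rested on cows 426 and 1000, since r was -0.09 without them. Over the 14 cows outside the 13 libraries r was 0.79 (permutation, adjusted p = 0.0391), and 0.12 without the same pair of cows. In 16 cows with genotype means removed r was 0.73 (permutation, adjusted p = 0.0423), and 0.30 without that pair. PPARGC1A with ESRRG in muscle at EL had r = 0.64 (permutation p = 0.0131, adjusted p = 0.118) and rho = 0.20 (adjusted p = 0.815), and r fell to 0.28 without cows 756 and 419. ESRRG with LPIN1 in muscle at EL had r = 0.53 and rho = 0.53 (permutation, adjusted p = 0.167 and 0.339), and r was 0.29 without cows 756 and 430. Over the 14 cows outside the 13 libraries r was 0.76 (permutation, adjusted p = 0.00756) and rho 0.67 (adjusted p = 0.0623), and r was 0.70 without cows 756 and 430. With genotype means removed in 16 cows, r was 0.49 (permutation, adjusted p = 0.239), and 0.73 without cows 756 and 164. On unlogged CPM in 16 cows r was 0.66 (permutation, adjusted p = 0.047), and 0.45 without cows 756 and 430.

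PPARGC1A and LPIN1 in muscle at LP had r = 0.52 and rho = 0.66 (permutation, adjusted p = 0.167 and 0.113), and r = 0.43 without cows 996 and 1179. Over the 15 cows outside the 13 libraries r was 0.60 (permutation, adjusted p = 0.0735) and rho 0.74 (adjusted p = 0.0226), and r was 0.64 without cows 996 and 1179. At EL the same pair had r = 0.07 and rho = -0.16, and r was -0.41 over the 15 cows without cow 756. In liver at EL the pair had r = 0.26 and rho = 0.44 (permutation, adjusted p = 0.783 and 0.515), and r was 0.68 without cows 3847 and 996. Over the 13 cows outside the 13 libraries r was 0.68 (permutation, adjusted p = 0.0579) and rho 0.83 (adjusted p = 0.0124).

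The changes of the genes within cows were compared in the same way, over 12 relations. The change of ESRRG from LP to EL went with that of LPIN1 in muscle at r = 0.70 (permutation, adjusted p = 0.029), with rho = 0.43 (adjusted p = 0.396), and r was 0.32 without cows 756 and 430. The change of PPARGC1A from EL to ML went with that of ESRRG at r = 0.75 (permutation, adjusted p = 0.029), with rho = 0.50 (adjusted p = 0.3), and r was 0.24 without cows 756 and 164. Both relations thus rested on the cows that were high at EL.

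**Figure D4:**
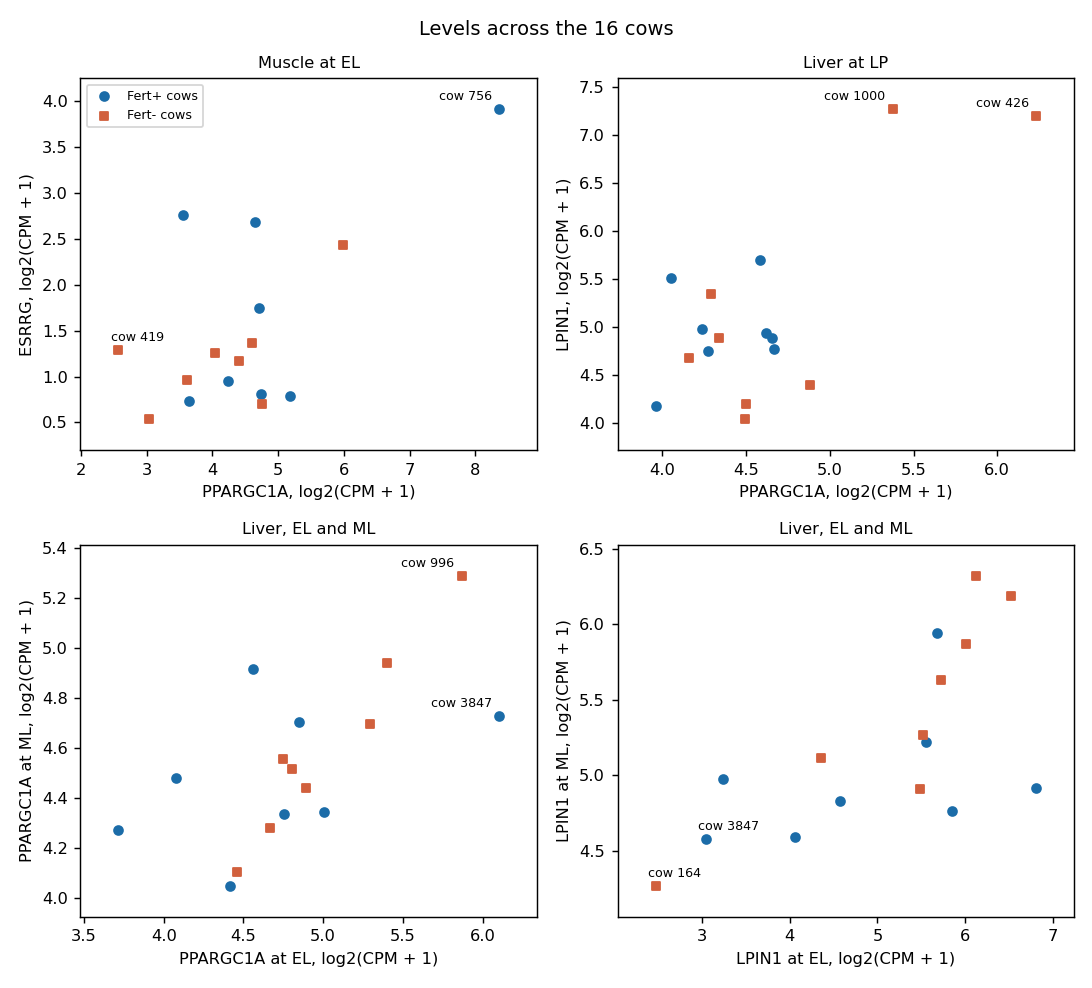
Levels across the 16 cows as log2(CPM + 1), with the genotypes in separate colours and the 2 cows farthest from the median of the horizontal axis named. The upper panels show PPARGC1A against ESRRG in muscle at EL (r = 0.64) and against LPIN1 in liver at LP (r = 0.72), where the named high cows stand apart, and the lower panels show EL against ML in liver for PPARGC1A (r = 0.65) and LPIN1 (r = 0.68).

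The order of the cows between time-points was compared in the same way. For PPARGC1A in liver, r between EL and ML was 0.65 and rho 0.67 (permutation, adjusted p = 0.0562 and 0.0483 over 18 relations), and r was 0.52 without cows 3847 and 996. For LPIN1, r was 0.68 and rho 0.68 (permutation, adjusted p = 0.0562 and 0.0483), and r was 0.52 without cows 164 and 3847. The median r between EL and ML over all liver genes was 0.23. Of those genes 3.99% and 3.18% were at or above the values of PPARGC1A and LPIN1. Between LP and EL in liver, r was -0.03 for PPARGC1A and -0.01 for LPIN1, below the all-gene median of 0.12. Between LP and ML r was -0.18 and 0.34, beside an all-gene median of 0.24. None of these liver relations with LP passed by permutation. In muscle the r of the 3 genes between any 2 time-points ran from -0.19 to 0.33, around the all-gene medians of 0.20. Between the tissues, ESRRG at LP was the relation that passed over 9 (r = 0.67, rho = 0.73, permutation, adjusted p = 0.0455 and 0.0182), but its liver values there are 0 to 5 fragments and are too sparse to be read.

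The genes most like each member were sought over the 48 libraries of a tissue, after group means (genotype by time-point) were subtracted. Only the 1724 tested genes of muscle and 1959 of liver with a symbol could be named, and genes without one can lie closer. These r values share library and depth and are given without p. In muscle, the named gene closest to PPARGC1A was SLC16A1 (r = 0.60, 6th among all genes), which carries lactate and pyruvate. Next came CCRN4L (0.59), a circadian gene, CREM (0.59), a cAMP-responsive factor, LPL (0.58), lipoprotein lipase, and HS3ST1 (0.56). Without the EL library of cow 756, LPL was at 0.59 (11th among all genes), CCRN4L at 0.52 (46th) and SLC16A1 at 0.48 (125th). CREM was then at 0.46 (158th) and HS3ST1 at 0.19 (2914th). ESRRG was closest to FNIP2 (0.75), RCAN1 (0.74), LMCD1 (0.72), NUDT4 (0.71) and CMYA1 (0.71), all between 0.59 and 0.66 without that library. LPIN1 was closest to FKBP5 (0.78), a glucocorticoid-induced chaperone of the glucocorticoid receptor, GLUL (0.75), glutamine synthetase, GREB1 (0.75), RAPGEF2 (0.74) and NAMPT (0.74), which makes NAD precursor, and these ran from 0.71 to 0.77 without the ML library of cow 996.

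In liver, PPARGC1A was closest to SIK1 (r = 0.71), a cAMP-induced kinase, PC (0.71), pyruvate carboxylase, the entry enzyme of gluconeogenesis, OGDH (0.69) of the citric acid cycle, CCRN4L (0.66) and COQ10B (0.60), and the r values were 0.56 to 0.63 without the LP library of cow 426. CCRN4L was thus among the 5 in either tissue. LPIN1 in liver was closest to HDC (0.71), histidine decarboxylase, GSTK1 (0.70), PER1 (0.70), a clock gene, FAH (0.68) and ACOX2 (0.67), a peroxisomal oxidase, and kept r of 0.60 to 0.70 without the EL library of cow 164. None of the 5 was shared with LPIN1 in muscle. Among themselves, PPARGC1A and ESRRG had r = 0.50 in muscle, with 0.276% of genes closer to PPARGC1A, but r = 0.23 without the EL library of cow 756. ESRRG and LPIN1 had r = 0.35 in muscle, PPARGC1A and LPIN1 0.09 in muscle and 0.40 in liver.

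Groups of related genes were also counted, from lists of textbook members of which only those that the study's tables pair with a symbol could be matched. Of 28 listed nuclear receptors and partners of PGC-1 only 4 were matched, and of 13 lipins and enzymes of glycerolipid synthesis only LPIN1 and DGAT2, so these lists say little beyond the members. In muscle at EL against LP, all genes tested had a median log2 fold change of 0.02, with 29.1% up-regulated and 24.8% down-regulated. Of 17 identifiers of mitochondrial biogenesis and respiration, 16 fell and 0 rose, with a median of -0.53, among them NDUFS1 (-0.87) and COX5A (-0.74) of the respiratory chain and IDH3A (-0.69) and OGDH (-0.61) of the citric acid cycle. Of 14 tested genes of fatty acid oxidation 6 rose and 3 fell, with a median of 0.02, the same as over all genes. Among them were PDK4, a kinase that inhibits pyruvate dehydrogenase, at 1.57, UCP3 at 0.98, CPT1B, the muscle carnitine palmitoyltransferase, at 0.72 and the carrier FABP3 at 0.53, while ETFA (-0.43), ECI1 (-0.33) and ACADS (-0.27) fell. Of 8 tested genes of gluconeogenesis 5 fell and 0 rose, with a median of -0.48, led by PC at -0.79. FOXO1, a transcription factor that PGC-1α coactivates and the only non-member called on the list of PGC-1 partners, rose by 1.16, higher in 15 of 16 cows.

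Fibre genes fell with the mitochondrial genes. Of 13 identifiers of slow fibres 12 fell and 0 rose (MYL3 at -1.29, MB, myoglobin, at -1.07), and of 11 of fast fibres 10 fell and 0 rose (CASQ1 at -2.17, MYL1 at -1.50). The sum of the muscle markers above fell in the same libraries, and its part in these counts was not tested. Of 5 glucocorticoid-responsive genes FKBP5 (1.77) and DDIT4 (1.02) rose and 0 fell, with a median of 0.42. DGAT2 was at 0.03 and did not pass. At ML against EL, where 28.5% of all genes were up-regulated and 31% down-regulated, the counts turned, with 15 of 17 mitochondrial, 11 of 13 slow-fibre, 10 of 11 fast-fibre and 7 of 8 gluconeogenic identifiers up and 0 down, while FOXO1 (-2.25), PDK4 (-2.49) and FKBP5 (-2.06) fell.

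**Figure D5:**
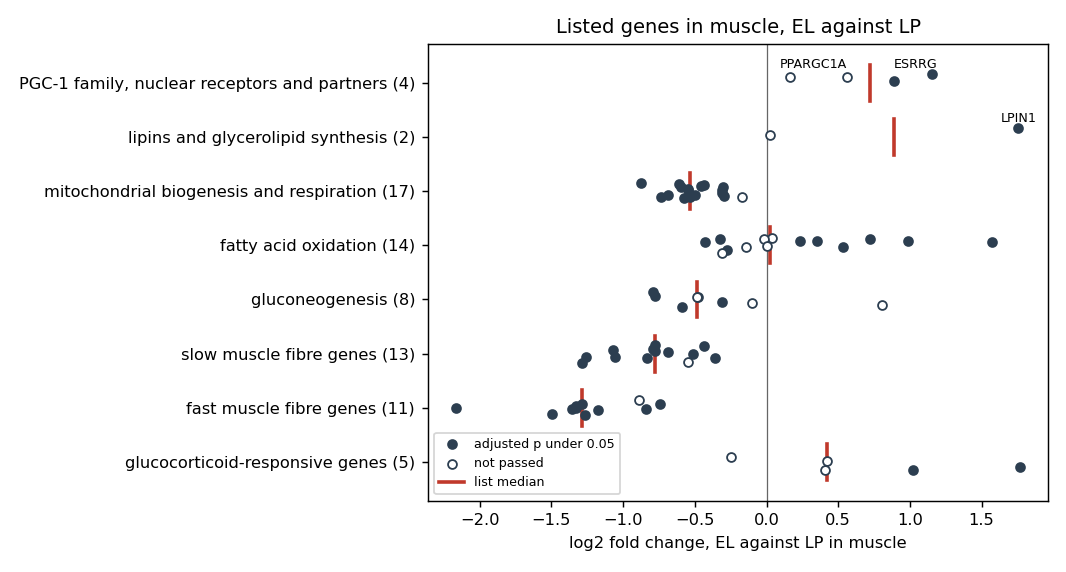
Log2 fold changes in muscle at EL against LP of the tested genes of 8 lists, with the number tested in brackets. Each point is a gene, filled where the adjusted p was under 0.05, and red bars are list medians. The mitochondrial and fibre genes lie left of 0 with medians of -0.53, -0.78 and -1.28, while LPIN1 lies at 1.76.

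In liver few list members were called between LP and EL, where 2.27% of all 13815 genes were up-regulated and 0.977% down-regulated. Without the 13 libraries edgeR called 0 of all genes there (1781 at an unadjusted p under 0.05), against 449 with them. PC (0.84) and LDHB (0.66) rose of 10 tested gluconeogenic genes, and DGAT2 (-0.56), the last step of triglyceride synthesis, fell. SGK1 (0.89) rose of 5 glucocorticoid-responsive genes, and 2 of 17 mitochondrial identifiers rose. Neither SGK1 nor any mitochondrial identifier was called up with the cow as a block. At ML against EL, where 18.1% of all liver genes were up-regulated and 20.2% down-regulated, PC fell by 1.77 and LDHB by 0.93 on the log2 scale, and SDS, serine dehydratase, by 1.87, with 3 of 10 gluconeogenic genes down and 0 up. Of 14 genes of fatty acid oxidation 5 fell and 2 rose, led by ANGPTL4 (-2.01), an inhibitor of lipoprotein lipase, and CPT1B (-1.25), with a median of -0.01 as over all genes. PC was lower at ML than at EL in 16 of 16 cows and PPARGC1A in 13 of 16, and the log2 fold change of PPARGC1A did not pass.

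The lists also differed in how their genes ran with the members over the 48 libraries, again as descriptions of r after group means were removed. In liver, 14 genes of fatty acid oxidation had a median r of 0.51 with LPIN1, and 10 of 14 were over 0.3, where the median over all genes was -0.03 and 13.9% were over 0.3. Without the EL library of cow 164 the median was 0.44. The 17 mitochondrial identifiers had a median r of 0.30 with PPARGC1A in liver, and 0.13 without the LP library of cow 426. In muscle the same 17 were on opposite sides for the members. Their medians were 0.24 for PPARGC1A (17 of 17 above 0), 0.29 for ESRRG (17 of 17) and -0.38 for LPIN1 (1 of 17). Without the EL library of cow 756 the medians of PPARGC1A and ESRRG were 0.29 and 0.35. The medians over all genes were 0.008, 0.006 and -0.002 for the 3 members. Fibre genes lay on the same sides by their medians. Fast-fibre genes had 0.07 (8 of 11 above 0), 0.36 (11 of 11) and -0.24 (0 of 11), in the same order. Slow-fibre genes had 0.16 (12 of 13), 0.18 (13 of 13) and -0.055 (4 of 13). Against the skeletal muscle marker sum over 16 cows, LPIN1 had r = -0.45, 0.20 and -0.38 at LP, EL and ML. ESRRG had 0.005, 0.55 and -0.01, and PPARGC1A -0.32, 0.27 and -0.20. None passed after adjustment in these permutation tests. The part of muscle content in the list medians was not tested.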

How the data were processed

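PolyA RNA of liver and semitendinosus muscle biopsies from 16 cows at 3 time-points (days -18, 1 and 147) was sequenced as 96 libraries with paired reads. The authors deposited raw counts of fragments per gene: per the study's methods and the submitters' processing notes, reads were called with CASAVA 1.8, trimmed, aligned with STAR to UMD 3.1 and counted with featureCounts in properly paired reads. The library kit does not mark strand, so fragments of a gene and of an overlapping antisense partner cannot be told apart. Series-wide tables hold 96 further value columns without sample names, which were not used, and no column of the authors' own comparisons was used. Gene symbols came from the study's tables, which pair 2250 identifiers with a symbol and favour DE and abundant genes, and no coordinates or sequences are given.

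Samples were grouped by the labels, and replicates are separate cows. Within each tissue, genes were filtered by filterByExpr, scaled by TMM and tested with edgeR 4.0.16 (robust quasi-likelihood F-test, Benjamini-Hochberg threshold 0.05) in R 4.3.3. Time-points were compared in 1 fit per tissue without a term for the cow, so the libraries of a cow were treated as independent. Genotypes were compared in 1 fit per tissue and time-point. All 3 members passed the filter in muscle and 2 in liver. Levels are CPM, and correlations and tissue comparisons used log2(CPM + 1) with 100000 permutations or exact sign flips. Samples of a cow come from the same animal, so cow numbers pair them: residuals of the same cow correlated over 0.1 in 42 of 48 muscle pairs and 39 of 48 liver pairs. Alternatives were the cow as a block, RLE factors, no filter, DESeq2 1.42.0, no robust estimation, each genotype alone, each cow left out, another pseudocount and the fit without the 13 libraries. The scripts were tested on simulated counts, drawn for each library without an effect of the cow. Of 200 genes changed 2-fold, the edgeR genotype test at EL recovered 66.5% in muscle and 62.5% in liver. For 4-fold changes these were 94.5% and 93%. The edgeR test of EL against LP recovered 92.5% of 2-fold changes in muscle and 84.5% in liver.

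The members, gene lists and tests were chosen with earlier results of these data known. Genes named besides the members are, by rule, the 5 named genes with the highest r to each member in each tissue and up to 4 called genes with the largest change per list. The total counts limit precision at low levels, and limits given for 0 counts cover counting error only.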

Additional observations from a re-analysis of the deposited data

Results flagged for a closer look

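Groups of 8 cows (a gene, tissue, time-point and genotype) were screened on unlogged CPM with Dixon's 95% limit for 8 samples. Of 36 groups, 9 held 1 cow whose gap to the next exceeded that limit. The limit flags about 1 in 20 groups by chance only where values are normally distributed. Unlogged CPM can be skewed upward and the groups share cows, so an excess over chance was not tested. In muscle at EL, cow 756 stood apart among Fert+ cows for PPARGC1A (328 CPM, next 35.4 CPM) and ESRRG (14.05 CPM, next 5.78 CPM). Cow 164 stood apart among Fert- cows in the same way for PPARGC1A (62.2 CPM, next 26.1 CPM) and ESRRG (4.39 CPM, next 1.58 CPM). Its library is among the 13 that count most of the set of 19 genes.

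For PPARGC1A in liver, cow 426 stood apart among Fert- cows at LP (74.2 CPM, next 40.5 CPM) and cow 3847 among Fert+ cows at EL (67.8 CPM, next 31.1 CPM). For LPIN1, the cows were 3847 in Fert+ muscle at LP (296 CPM, next 161 CPM), 996 in Fert- muscle at ML (216 CPM, next 112 CPM) and 3434 in Fert+ liver at ML (60.6 CPM, next 36.4 CPM). In each of the 9 groups it was the highest cow that stood apart.

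The change of LPIN1 differed between muscle and liver at all 3 steps, by 1.69 from LP to EL, -2.62 from EL to ML and -0.93 from LP to ML on the log2 scale (exact sign-flip tests over 16 cows, adjusted p = 0.0119, 0.000275 and 0.0119).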

How the results depend on the processing

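LPIN1 in muscle kept its rise at EL and its fall at ML, called under every alternative tried and without each cow in turn. With the cow as a block, the log2 fold changes in muscle were, from LP to EL and from EL to ML, -0.019 and 0.035 for PPARGC1A and 0.55 and -0.54 for ESRRG, and that of PPARGC1A from LP to ML was 0.016. In liver the block gave -0.019 for LPIN1 from LP to EL. It changed no other call of the 3 genes, but it moved 10 list counts by more than 1.5 times, among them the mitochondrial genes up in liver at EL (2 to 0) and SGK1, which was not called. DESeq2 gave -0.18 and 0.16 for PPARGC1A at the same steps in muscle, after it replaced the count of 5533 of cow 756 by 375. Without the 13 libraries, ESRRG was at 0.59 and -0.60, and at -0.014 from LP to ML, and LPIN1 from LP to ML was at -0.75.

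In Fert+ cows alone PPARGC1A in muscle was at 1.49 and -1.39, both called, and at 0.10 from LP to ML, and in Fert- cows alone it was at -0.39 and 0.26. ESRRG in Fert- cows alone was at 0.20 and -0.19, and LPIN1 from LP to ML was at -0.87 in Fert+ and -0.81 in Fert- cows, not called with fewer samples in either. In liver LPIN1 was at -0.19 from LP to EL in Fert- cows, and in Fert+ cows PPARGC1A and LPIN1 were at 0.092 and 0.0045 from LP to ML. The exact test with a common dispersion called the genotype differences of PPARGC1A (1.47) and ESRRG (1.31) in muscle at EL and of LPIN1 (-0.80) in liver at LP, while the other alternatives did not.

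With each cow left out in turn, the log2 fold changes from LP to EL in muscle ran from -0.18 to 0.69 for PPARGC1A and from 0.50 to 1.04 for ESRRG. From EL to ML they ran from -0.66 to 0.13 and from -0.95 to -0.46. From LP to ML they ran from -0.088 to 0.13 for PPARGC1A, from -0.11 to 0.16 for ESRRG and from -0.96 to -0.72 for LPIN1. In liver LPIN1 ran from -0.15 to 0.25, from -0.25 to 0.037 and from -0.23 to 0.075 at the 3 steps, and PPARGC1A from LP to ML from -0.22 to 0.065. Between genotypes in muscle, ESRRG ran from -0.21 to 0.062 at LP and from -0.19 to 0.13 at ML, and LPIN1 from -0.33 to 0.088 at ML. The cause of these turns was not tested.

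The correlation of ESRRG with LPIN1 in muscle at EL passed on unlogged CPM (r = 0.66) and without the 13 libraries (r = 0.76), and that of PPARGC1A with LPIN1 in liver at LP passed with genotype means removed (r = 0.73) and without the 13 libraries (r = 0.79), by permutation tests. Without the 13 libraries, PPARGC1A with LPIN1 also passed by rho in muscle at LP (0.74) and in liver at EL (0.83). PPARGC1A with LPIN1 in muscle at EL turned to -0.0077 with genotype means removed and to -0.41 without cow 756. Without the 13 libraries, r turned to 0.089 for ESRRG with LPIN1 in muscle at ML, to -0.064 for the same pair in liver at EL and to 0.10 for PPARGC1A with ESRRG in liver at ML. With TMM over the 96 libraries, muscle minus liver of PPARGC1A at LP was 0.051.

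Counts over all genes moved more than 1.5 times under some settings. Liver EL against LP went from 449 genes to 297 without a filter and to 0 in Fert- cows. Liver ML against EL went from 5280 to 665 in Fert- cows, and ML against LP from 1721 to 47 in Fert+ and 540 in Fert- cows. In muscle, EL against LP went from 6828 to 4273 in Fert+ cows and ML against LP from 771 to 152 and 55. Genotype counts under a common dispersion were 214 (muscle LP and ML), 438, 306, 301 and 279 (liver LP, EL and ML), and 1 fit over 48 libraries called 566 genes in muscle and 362 in liver at EL. At the ESRRG counts of liver, depth limits any comparison.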
